A study of Mus musculus with 18 samples.

Results

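Spinal cords of mice of the strain SMNdelta7 (SMAdel7 in the sample titles) were compared at postnatal day 6 (P6), between pups labelled homozygote (SMA) and pups labelled heterozygote (control). The genes described are the 8704 gene loci, of 58570 in the deposited tables, that carried a single gene symbol, had an OK status in both groups and reached 5 FPKM or more in at least 1 of them. FPKM counts sequenced fragments per length of transcript and per total of fragments, so levels of different genes are compared here per length. Of the 8704 loci, 7737 were protein-coding, 462 were long noncoding RNAs, 166 were small RNAs, 228 had no matching gene in the annotation, and the remainder were of other types. They carried 8588 distinct symbols, so some symbols have several loci, and each locus counts as a gene in the totals below. The highest-expressed group of the loci nearest the limit stood at 5.00 FPKM on both sides of it, and the median log2 difference of the 100 loci just inside and of the 100 just outside was 0.05 for each.

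The control group was heterozygous for the disrupted Smn1 allele of the SMNdelta7 strain and the SMA group homozygous, both as whole cords at P6 with no treatment named. As background, this strain carries human SMN transgenes, namely the SMN2 gene and an SMN complementary DNA that lacks the exon SMN2 mostly skips, so homozygous pups make a reduced amount of SMN protein and not none. Controls carried 1 disrupted allele themselves and are no wild-type group. Each group stood for 3 labelled libraries that the authors had combined into 1 value per gene with a model 95% interval. No library values were analysed here, so the interval is the only measure of spread, and the labels do not say whether a library came from 1 animal or what sex the pups were.

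Spinal muscular atrophy follows from too little survival motor neuron (SMN) protein. SMN works in a complex with the Gemin proteins that loads Sm protein rings onto small nuclear RNAs of the spliceosome, and lower motor neurons of the cord are the cells that degenerate. In mouse models the disease also reaches other organs, and stress hormones, fuel metabolism and the p53 pathway are among the processes studied in them. Whole-cord RNA mixes neurons, glia, vessels and any attached roots and membranes, and in such bulk RNA fewer cells of a type and less RNA per cell cannot be told apart.

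The disrupted gene matched the labels at P6. Smn1 was at 4.46 FPKM (interval 0.975 to 7.95) in control and was listed at 0 in SMA, with 30.0 and 0 estimated fragments, so it fell outside the rule. Values at P2 and P10 stand beside some results; Smn1 was at 2.70 (control) and 0.0210 FPKM (SMA) at P2, but at 3.54 and 2.82 at P10, so at P10 the label SMA is not borne out by this gene and every P10 direction below is that of the group so labelled. The 2 groups were near equal in total, at 6982301 estimated fragments in control and 7385495 in SMA. They differed in ribosomal RNA: 4 loci of ribosomal RNA or with fragment totals that went with it (Rn18s-rs5, Gm42418, Lars2 and a locus without a symbol) took 4.73% of fragments in control and 10.5% in SMA, with 2.26 to 2.37 times as many fragments each. The locus without a symbol was picked by its higher fragment total in SMA at P6, so its ratio is no separate support. Rn18s-rs5 and Gm42418 have the same coordinates and are not separate observations. The groups also differed in sex-linked RNA. Ddx3y, a Y-linked RNA helicase, was at 4.92 FPKM in control and 14.9 in SMA, Uty at 5.93 and 14.5, Kdm5d at 2.60 and 6.51, and Eif2s3y at 11.0 and 23.7. The joined locus with Xist, the RNA that silences 1 X chromosome in females, went the other way, from 69.8 in control to 33.6 in SMA. The part of the ribosomal share and of sex in the differences below was not tested. Cord identity markers were present in both groups, with Hoxc8 at 20.5 and 17.2 FPKM, and the forebrain genes Emx1 and Tbr1 stood at 0.252 FPKM or less; Neurod6, also fixed as a forebrain marker, was at 5.93 and 6.33.

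Across the genes, SMA and control cords at P6 were close to each other, and most genes lay slightly higher in SMA. The median log2 difference, defined as the log2 of (SMA FPKM + 1) over (control FPKM + 1), was 0.10 over the 8704 genes, with quartiles of 0.00 and 0.20, and 90% of genes lay between -0.22 and 0.37. A higher value in SMA was found for 75.2% of the genes and for 79.0% of the protein-coding ones. On the other deposited quantity, the estimated fragments per gene, the median was 0.04 and 60.7% were higher. Dividing each group by its upper quartile lowers every log2 ratio of FPKM by 0.12, and the differences on FPKM + 1 by up to that, after which 48.1% of the genes were higher, so the direction of the average gene depends on the scaling. A list's count of higher members is read below against these shares. Lists whose median is said to be near that of all genes therefore have no direction of their own, and of 21 lists or families with a median at least 0.1 away from it, 21 kept the side on which they lay under every pseudocount, scaling, filter and deposited quantity tried. A difference near 0.10 on FPKM is thus that of the average gene. Centring on the median of all genes moves lists and reference alike, so it could not change a side. Leaving out the ribosomal loci shifts all fragment differences by a constant and adds nothing to plain fragments. Upper quartile scaling also shifts lists and reference nearly alike. The sides were thus put to a trial only by the pseudocounts, the filters and the fragments. Some members reached 5 FPKM in 1 group only, such as Per1, Ucp1, Fabp4, Aen and Hoxd9 in SMA or Calcb and Hist1h2ba in control. The filter favours the direction of such members, so their part in the counts and medians below is no separate support. No share over all loci under 5 FPKM was taken, so counts under the filter are descriptions only.

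No protein-coding gene passed the test at P6. A z test on log ratios (two-sided), whose errors came from the deposited intervals, with Benjamini-Hochberg adjustment over 19631 loci called 9 loci (0.0458%), 6 of them among the 8704 genes. Among protein-coding genes 0 were called, the smallest adjusted p was 0.146 (for Ucp1), and 3 had an unadjusted p under 0.05. From the estimated fragments and their variance the same test called 0 loci (0.00%), with 3 protein-coding genes at an unadjusted p under 0.05. Deposited intervals failed to overlap at 23 loci (0.117%), among them Ucp1, Fabp4 and Gm37419 of the protein-coding genes. The interval was wide, with a median half-width of 56.0% of the FPKM in control and 55.9% in SMA. Most differences of the size seen here were therefore not detectable gene by gene.

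The called gene with a name was Dancr, a long noncoding RNA and host of small nucleolar RNAs. It fell from 97.2 to 50.4 FPKM (log2 ratio -0.95, standard error 0.09, adjusted p 5.06e-24 by the z test), but its estimated fragments were 21.8 in control and 27.4 in SMA, a difference of 0.32 in the other direction. The other 5 among the 8704 genes were the small RNA loci Gm24233, Gm25534, Gm26268, Gm28030 and Gm28010, each with 0.178 to 1.35 estimated fragments in a group. Their intervals were narrow although almost no fragment lay behind them.

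By size alone, 107 of the 8704 genes were at least 1.5-fold higher in SMA on the FPKM + 1 scale (1.23%) and 112 were at least 1.5-fold lower (1.29%). Few of them were protein-coding: 46 higher (0.595%) and 7 lower (0.0905%). Small RNAs made up 40 of the higher and 63 of the lower, which is 62.0% of the small RNAs, and their median was 0.833 estimated fragments in control. Of the long noncoding RNAs 8.87% were past 1.5-fold, with a median of 91.3 fragments, against 0.685% of protein-coding genes with a median of 324 fragments. The class with the fewest fragments behind its values thus had the largest share past the fold.

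**Figure D1:**
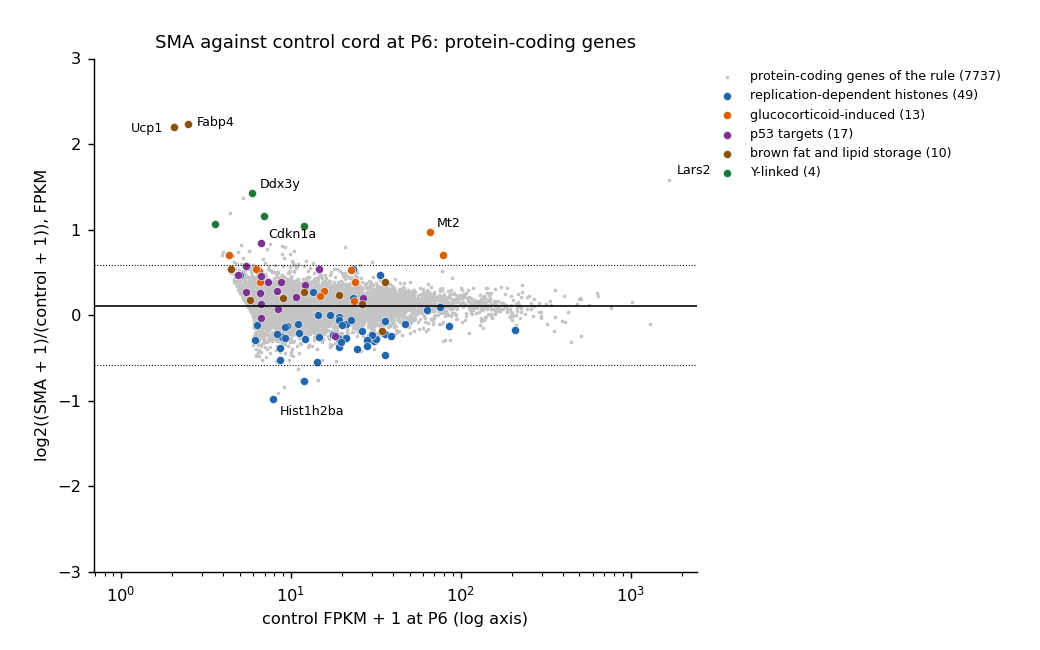
Log2 difference between SMA and control at P6 (vertical) against the control FPKM + 1 (horizontal, log axis) for the 7737 protein-coding genes in grey and for 5 gene groups in colour; the solid line is the median of all genes and the dotted lines are 1.5-fold. Gm37419 lies outside the axis; the glucocorticoid-induced genes lie above the median line and most histones below it.

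Of the 46 protein-coding genes past 1.5-fold higher, 25 were also past it on estimated fragments and 13 were under 1.3-fold there; of the 7 lower, 5 were also past it. Sp1, a general transcription factor, was at 8.22 FPKM in control and 15.0 in SMA, a difference of 0.79, but of 0.07 on fragments. Panx1, a large-pore channel, gave 0.81 and 0.13, the TATA-binding protein gene Tbp 0.72 and 0.17, and Trim26 0.66 and 0.12. On the low side B4galt3, a galactosyltransferase, gave -0.76 and -0.07. Ece1, the endothelin-converting enzyme, fell short of 1.5-fold and gave -0.53 and -0.10. For these genes the difference lay in the length-scaled value and hardly in the fragments. Loci of Strbp, Ppp2r3d, Atg16l2, Gm37419 and Hist1h2ba, also past 1.5-fold, had under 10 estimated fragments in a group. Other loci with the symbol Atg16l2 gave 0.32, -0.41, -0.18 and 0.06, the last from 166 (control) and 152 (SMA) fragments. Strbp has loci among both the 15 highest and the 15 lowest protein-coding differences.

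**Figure D2:**
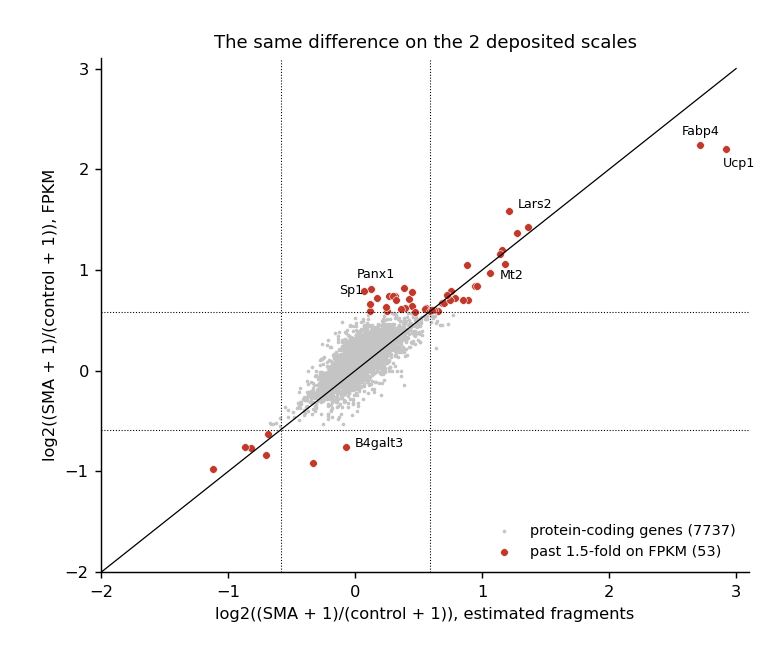
Log2 difference on FPKM + 1 (vertical) against the same on estimated fragments + 1 (horizontal) for the 7737 protein-coding genes, with the 53 past 1.5-fold on FPKM in red, the diagonal of equality and dotted lines at 1.5-fold. Mt2, Ucp1 and Fabp4 differ on both scales, while Sp1, Panx1 and B4galt3 differ on FPKM and lie near 0 on fragments.

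Of the gene lists with at least 5 members past the filter, the genes that glucocorticoids induce stood farthest above the other genes. Of 13 members past the filter 13 had a higher value in SMA (75.2% of all genes did), with a median log2 difference of 0.52 on FPKM and 0.52 on fragments, 3 were past 1.5-fold, and none was called. Per1, among those past 1.5-fold, reached 5 FPKM in SMA only. Of the 15 listed genes under 5 FPKM 15 were higher, with no share of all loci under 5 FPKM to set this against. As background, such genes carry binding sites for the glucocorticoid receptor and respond within hours to corticosterone, the stress hormone of mice, which also rises with fasting.

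Mt2 and Mt1, small metal-binding proteins that buffer zinc and copper, were the most abundant members. Mt2 was at 64.7 (34.7 to 94.7) FPKM in control, with its interval in brackets, and at 128 (71.7 to 183) in SMA, a difference of 0.97 (standard error of the log2 ratio 0.47; 121 and 254 estimated fragments). Mt1 was at 78.1 (43.6 to 113) and 128 (73.1 to 182) FPKM, a difference of 0.70 with a standard error of 0.45. Both pairs of intervals overlapped, and the adjusted p was 1 for Mt2. The neuronal and glial relative Mt3 stood at 57.2 and 58.3 FPKM, a difference of 0.03. Of 14 metallothioneins and zinc transporters past the filter, 13 were higher with a median of 0.12, near that of all genes. Slc39a12, a zinc importer of astrocytes, was at 13.1 and 18.1 FPKM and Slc39a3 at 7.79 and 10.2. The zinc exporter Slc30a1 was at 7.88 and 8.05. Mt1 and Mt2 were the 2 members past 1.5-fold, and the part of metal or of hormone in their values was not tested.

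The 3 metallothionein genes lie next to each other on chromosome 8, and the bases before their starts are shown here. Whether these bases bear on the differences at P6 was not tested. The sequences are RefSeq's 250 bases upstream of the annotated start in build GRCm38.p6, on the plus strand, at chr8:94178839-94179088 for Mt1, chr8:94172368-94172617 for Mt2 and chr8:94152357-94152606 for Mt3. Capitals mark the core of the metal response element, searched on both strands as TGCACNC or TGCGCNC.
Mt1: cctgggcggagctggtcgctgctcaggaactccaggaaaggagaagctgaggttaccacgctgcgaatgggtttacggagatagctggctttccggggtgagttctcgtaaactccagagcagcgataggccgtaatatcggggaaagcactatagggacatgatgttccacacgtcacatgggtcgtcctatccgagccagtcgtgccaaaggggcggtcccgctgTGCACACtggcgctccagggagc
Mt2: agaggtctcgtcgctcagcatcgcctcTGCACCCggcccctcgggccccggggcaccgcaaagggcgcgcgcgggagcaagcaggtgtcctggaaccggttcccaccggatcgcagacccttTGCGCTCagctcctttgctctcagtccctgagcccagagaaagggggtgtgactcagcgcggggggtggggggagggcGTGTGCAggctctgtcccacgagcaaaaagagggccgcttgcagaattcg
Mt3: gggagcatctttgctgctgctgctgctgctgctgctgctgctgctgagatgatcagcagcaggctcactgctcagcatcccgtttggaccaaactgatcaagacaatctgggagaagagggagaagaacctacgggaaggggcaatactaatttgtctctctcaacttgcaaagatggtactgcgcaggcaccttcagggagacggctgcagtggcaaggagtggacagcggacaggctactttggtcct
Mt2 holds 3 cores in these bases, Mt1 holds 1 and Mt3 holds 0, but in the 300-base window that runs on past the start the numbers are 4, 3 and 1. Of 32851 mouse promoters of the same length, 21.4% hold at least 1 core, 5.17% at least 2 and 1.26% at least 3; of the 300-base windows 25.7%, 7.11% and 1.97% do. A match is a run of letters and not a measured binding site.

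The other glucocorticoid-induced members were regulators and enzymes. Per1, a clock gene that the hormone resets, was at 3.35 (0.594 to 6.10) FPKM in control and 6.05 (1.302 to 10.8) in SMA (difference 0.70, standard error of the log2 ratio 0.84). The transcription factor Klf9 was at 5.24 (3.01 to 7.47) and 8.07 (4.75 to 11.4) (0.54, standard error 0.44), and Txnip, an inhibitor of thioredoxin and glucose uptake, at 21.5 and 31.4 (0.53). Tsc22d3, which encodes the glucocorticoid-induced leucine zipper, was at 22.8 and 30.1, the NF-kappa-B inhibitor Nfkbia at 5.55 and 7.56, and the kinase Sgk1 at 13.8 and 16.3. The smallest difference was that of Errfi1, at 22.5 and 25.5 (0.17). The 28 genes of the list that were measured, filtered or not, summed to 297 FPKM (control) and 461 FPKM (SMA). The list's median was 0.91 at P2 and -0.31 at P10, ages that have control groups of their own.

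**Figure D3:**
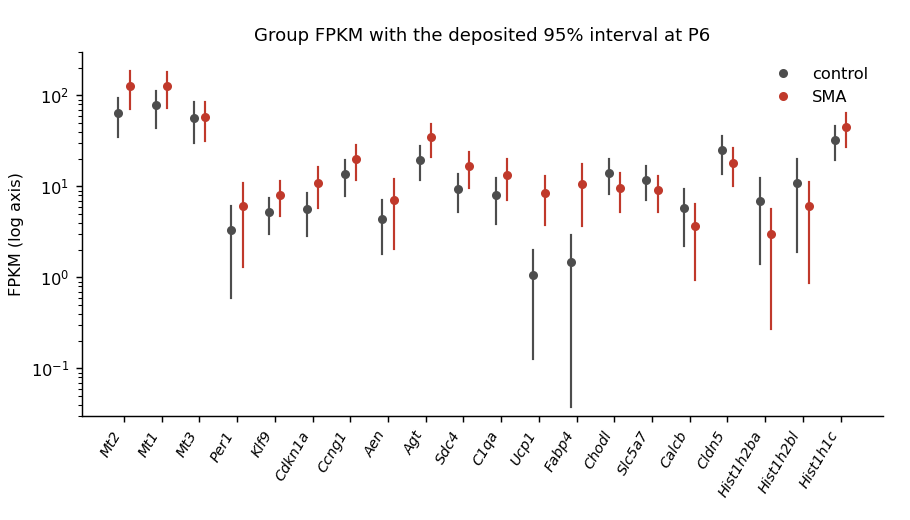
FPKM (log axis) of 20 genes in control (grey) and SMA (red) at P6, where the point is the group's deposited value and the line its 95% interval. The intervals of Ucp1 and of Fabp4 are apart between the groups, and the intervals of the other 18 genes overlap.

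Targets of p53 also lay above most genes. The p53 protein is stabilised by DNA damage and other stress and switches on cell cycle inhibitors, pro-death genes and its own inhibitor Mdm2. Of 17 members past the filter 15 had a higher value in SMA, with a median of 0.29 on FPKM and 0.27 on fragments, 1 was past 1.5-fold and none was called. Aen and Sesn2 reached 5 FPKM in SMA only. Below 5 FPKM, 16 of 20 listed genes were higher, among them the pro-death genes Bbc3 at 2.99 and 4.78 and Pmaip1 at 0.590 and 1.29. Medians were 0.20 at P2 and 0.05 at P10.

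Cdkn1a, which encodes the cell cycle inhibitor p21, was at 5.70 (2.84 to 8.56) FPKM in control and 11.0 (5.85 to 16.2) in SMA, a difference of 0.84 with a standard error of the log2 ratio of 0.51 and an adjusted p of 1. It was higher at the other ages as well, by 0.37 at P2 and 1.15 at P10. Ccng1, which encodes cyclin G1, was at 13.6 (7.88 to 19.4) and 20.2 (11.8 to 28.7) FPKM, with differences of 0.54 at P6, 0.46 at P2 and 0.37 at P10. Aen, a nuclease of apoptosis, was at 4.41 and 7.10, but its difference of 0.58 was 0.27 on fragments. Sesn2 and Sesn1, sestrins that restrain the growth kinase mTORC1, were at 3.86 and 5.75 and at 7.27 and 9.10. Trp53inp1 was at 7.74 and 10.4, Phlda3, an inhibitor of Akt signalling, at 6.31 and 8.54, and the kinase gene Plk2 at 11.1 and 14.4. Trp53 itself gave 0.26 and Mdm2 0.21. The members with lower values were Rrm2b, a ribonucleotide reductase subunit, at -0.04 and Pltp, a phospholipid transfer protein, at -0.24. The pro-death gene Bax was measured only in a locus joined with other genes, at 18.3 (control) and 25.6 FPKM (SMA).

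The bases before the starts of Cdkn1a and Ccng1 are printed because p53 acts on both genes through sites near them. They are RefSeq's 250 upstream bases in GRCm38.p6, at chr17:29090729-29090978 on the plus strand for the first Cdkn1a start and chr11:40755287-40755536 on the minus strand for Ccng1, read 5′ to 3′ along the gene. Capitals mark matches to the p53 half-site.
Cdkn1a: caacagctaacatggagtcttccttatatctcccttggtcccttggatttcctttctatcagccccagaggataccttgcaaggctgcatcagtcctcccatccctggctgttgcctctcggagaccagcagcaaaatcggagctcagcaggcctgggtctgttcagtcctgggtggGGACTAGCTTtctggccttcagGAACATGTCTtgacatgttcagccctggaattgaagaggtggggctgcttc
Ccng1: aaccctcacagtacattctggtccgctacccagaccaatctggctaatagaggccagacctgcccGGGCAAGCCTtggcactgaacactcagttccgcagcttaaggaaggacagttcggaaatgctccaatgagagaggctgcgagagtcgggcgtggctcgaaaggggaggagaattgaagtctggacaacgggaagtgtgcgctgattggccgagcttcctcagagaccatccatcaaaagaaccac
Cdkn1a has 2 half-site matches there, whose first bases lie at -73 and -51 from the start, and Ccng1 has 1 at -185. A second annotated Cdkn1a start, whose window is chr17:29093519-29093768, has 0. Of all 32851 promoters 7.13% hold at least 1 match and 0.259% at least 2.

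Apart from Gm37419, which had under 1 estimated fragment in each group, the protein-coding genes with the greatest differences were Ucp1 and Fabp4, both genes of brown fat. Ucp1, the uncoupling protein with which brown fat makes heat, was at 1.05 (0.127 to 1.98) FPKM in control and 8.44 (3.75 to 13.1) in SMA, a difference of 2.201 (standard error of the log2 ratio 0.77, adjusted p 0.146), from 15.3 and 122 estimated fragments. Fabp4, the fatty acid binding protein of adipocytes, was at 1.47 (0.0374 to 2.90) and 10.6 (3.64 to 17.6) FPKM, a difference of 2.24 (standard error 0.87, adjusted p 1). Under 5 FPKM, Cox8b, the muscle and brown fat form of a respiratory subunit, was at 0.327 and 4.65, the fatty acid transporter Cd36 at 1.03 and 2.89, the lipase Lpl at 1.40 and 2.62, and the fat hormone Adipoq at 0.125 and 0.511. The 5 defining markers (Ucp1, Cidea, Cox8b, Fabp4 and Adipoq) summed to 5.41 FPKM in control and 27.7 in SMA and were higher in 5 of 5, and none was at 0. Of the 10 members past the filter 9 were higher with a median of 0.25, and 14 of 17 under it. Ucp1 and Fabp4 reached 5 FPKM in SMA only, so the filter favoured their direction. Several of these are expressed by the cord itself: Fabp3 was at 34.9 and 45.8, Acsl1 at 10.9 and 13.4, and Scd1, a desaturase used in myelin lipids, at 33.4 and 29.4. Ucp1 gave 0.90 at P2 and -0.11 at P10, and Fabp4 0.87 and -0.14. Fat around the cord lies outside it in the animal, and the part of attached tissue in these values was not tested.

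Markers of other tissue that borders the cord were mostly higher in the SMA group too. The 5 sensory ganglion markers summed to 1.55 FPKM in control and 4.72 in SMA, higher in 5 of 5, with none at 0. Among them Avil, an actin regulator of sensory neurons, was at 0.550 and 1.89 and the pain fibre sodium channel Scn11a at 0.368 and 1.17. Of the ganglion list's 12 genes past the filter 9 were higher with a median of 0.12 (0.02 on fragments), which is that of the average gene. Of its 18 genes under 5 FPKM 17 were higher, including the ATP receptor P2rx3 at 0.446 and 1.48. Prx, a protein of the myelin that Schwann cells make, was at 4.23 and 5.75 FPKM, and Pmp22 at 62.4 and 76.6. Of 11 Schwann cell genes past the filter 10 were higher, with a median of 0.26, and 8 of 9 under it; Mal and Fabp7 among them are central glial genes too. Skeletal muscle markers summed to 6.89 and 6.77 FPKM and had no member past the filter.

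Fibroblast and meningeal genes followed. Of 23 genes past the filter 21 were higher, with a median of 0.22, and 4 of 4 defining markers, which summed to 113 FPKM in control and 139 in SMA; under the filter 5 of 10 were higher. Col1a1, the alpha-1 chain of type I collagen, was at 24.4 (14.6 to 34.1) and 37.2 (13.9 to 60.5) FPKM (difference 0.59, standard error of the log2 ratio 0.55), and its partner Col1a2 at 62.5 and 73.9. Ptgds, a prostaglandin synthase abundant in meninges, was at 88.2 and 120.1, and Mgp, an inhibitor of calcification, at 3.25 and 5.17. Igf2, also a meningeal product, was at 56.4 and 54.8 and the proteoglycan Bgn at 16.7 and 14.6. Among collagens as a family 19 of 20 were higher with a median of 0.24: the basement membrane chain Col4a2 was at 11.5 and 15.6, the type VI chains Col6a1, Col6a2 and Col6a3 gave 0.24, 0.38 and 0.34, and the exception was Col14a1 at -0.18. Under the filter 16 of 21 collagens were higher. The collagen median was 0.03 at P2 and -0.34 at P10.

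Blood markers lay on the other side, and vessel genes were mixed. The 3 blood markers summed to 971 FPKM in control and 804 in SMA, lower in 3 of 3: the globins Hba-a1 and Hbb-bs were at 443 and 358 and at 509 and 430.0, and Alas2, the haem synthesis enzyme of red cells, at 18.9 and 16.3 in the highest of the loci that share its symbol. Of 12 erythroid genes past the filter 7 were lower (24.8% of all genes were), with a median of -0.06, and 7 of 10 under it. Cldn5, the main tight junction protein of the blood-brain barrier, was at 24.9 (13.5 to 36.2) FPKM in control and 18.3 (10.1 to 26.5) in SMA (difference -0.42, standard error of the log2 ratio 0.47). The endothelial cadherin Cdh5 was at 5.12 and 4.06, the VEGF receptors Flt1 and Kdr at 5.67 and 4.79 and at 8.89 and 8.27, and the amino acid carrier Slc38a5 at 5.53 and 4.28. Barrier transporters went the other way, with Mfsd2a, the omega-3 lipid carrier, at 13.1 and 16.98 and the glucose carrier Slc2a1 at 9.98 and 12.8. Both are made by other cells as well, whose part was not tested. Over all 15 endothelial genes 10 were higher, a smaller share than of all genes, with a median of 0.08. Under the filter 5 of 16 were higher. Pericyte genes past the filter numbered 5, with a median of -0.03, and under the filter 11 of 17 were higher.

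Motor neuron genes did not move as one. Chodl, which marks the surface of fast motor neurons, was at 14.2 (8.29 to 20.1) FPKM in control and 9.57 (5.26 to 13.9) in SMA, a difference of -0.53 (standard error of the log2 ratio 0.45, adjusted p 1), and was also lower at P2 (-0.72) and P10 (-0.53). Calcb, the beta form of the peptide CGRP, was at 5.78 (2.24 to 9.32) and 3.70 (0.946 to 6.46) (-0.53), also lower at P2 (-0.47) and P10 (-0.22). The choline transporter Slc5a7, which feeds acetylcholine synthesis, was at 11.9 and 9.09, and the vesicular acetylcholine transporter Slc18a3 at 8.21 and 6.40. Chat, the synthesizing enzyme, was under the filter at 2.34 and 2.12. On the higher side stood Calca, the alpha form of CGRP, at 12.1 and 15.9, and the intermediate filament Prph at 21.8 and 25.1. Calca, Calcb and Prph are made by sensory neurons as well, whose low-level markers were higher in SMA; their part in these values was not tested. Of 13 members 7 were higher and 6 lower, with a median of 0.05, and under the filter 8 of 15 were higher. The 6 defining motor neuron markers summed to 46.9 FPKM in control and 45.5 in SMA.

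Genes of other neurons differed little. Transmitter genes had 30 of 34 higher with a median of 0.08. The glutamate vesicle transporter Slc17a6 was at 51.7 and 60.7, the GABA and glycine vesicle transporter Slc32a1 at 8.02 and 7.87, and the NMDA receptor subunit Grin2a at 15.7 and 14.5. Synaptic release genes had a median of 0.09, from Napb at 0.25 to Sv2c at -0.20, voltage-gated channels 0.06, from Cacna2d2 at 0.32 to Scn8a at -0.21, and growth cone and guidance genes 0.05, from Dpysl4 at 0.30 to Ephb2 at -0.31. Scn8a encodes the sodium channel of mature nodes and was at 27.8 and 23.8 FPKM. Dcx, a microtubule protein of young neurons, was at 23.5 and 19.8, while the growth cone protein Gap43 was at 149 and 178. No member of these 4 groups was past 1.5-fold.

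Neuropeptide genes past the filter had a higher median than the other neuronal lists, with 16 of 21 higher and a median of 0.21 (0.13 on fragments), though the share higher was near that of all genes. Under the filter 5 of 12 were higher. Vgf, an activity-induced granule protein, was at 12.04 (4.68 to 19.4) and 18.1 (7.14 to 29.0) FPKM (difference 0.55, standard error of the log2 ratio 0.63). The granule proteins Chga and Scg2 were at 37.3 and 45.7 and at 45.6 and 55.8, the processing enzyme Cpe at 228 and 292, and the opioid precursors Pdyn and Penk at 4.52 and 6.02 and at 27.2 and 32.5. Npy was at 22.7 and 20.8, and after Calcb it was the lowest member by difference.

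Myelin genes were higher in SMA in 23 of 23 members past the filter, by small amounts, and in 4 of 7 under it. Their median was 0.18 on FPKM and 0.12 on fragments, against 0.10 and 0.04 for all genes, and none was past 1.5-fold. Mbp, a main protein of central myelin, was at 1012 and 1130.1 FPKM. Mog, on the outer face of the sheath, was at 17.4 and 18.3, the tight junction gene Cldn11 at 74.2 and 91.7, and Myrf, the factor that starts myelination, at 7.62 and 10.1. Cryab had the largest value of the list on FPKM, 0.48, and 0.01 on fragments. The same list had a median of 1.97 at P2 and -0.65 at P10. The difference between ages was itself called for Ermn and Mal: Mal gave a log2 ratio of 0.31 at P6 and 3.81 at P2, a difference of -3.49 (standard error 0.80, adjusted p 0.0355 by the z test over 19578 loci, of which 7 were called).

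Other glial groups lay near the average gene. Oligodendrocyte precursor genes had a median of 0.07, with the proteoglycan Cspg4 at 4.31 and 5.43, the lineage factor Olig2 at 17.6 and 15.1 and Sox6, which holds precursors immature, at 17.2 and 13.5 (difference -0.33, and -0.02 on fragments). Cholesterol synthesis genes had a median of 0.07, from Msmo1 at 0.19 to Mvk at -0.27. Astrocyte genes had 20 of 26 higher and a median of 0.13, and 1 of 4 under the filter. Within them the hormone precursor Agt, from which angiotensin is cut, was at 19.7 (11.7 to 27.7) and 34.9 (20.8 to 48.9) FPKM (difference 0.79, standard error of the log2 ratio 0.42), and the gap junction gene Gjb6 at 5.46 and 8.24. The growth factor receptor Fgfr3 was at 30.5 and 39.8 and the neurotensin receptor Ntsr2 at 14.4 and 18.9. The intermediate filament Gfap, a mark of reactive and maturing astrocytes, was at 157 and 172, and the immature markers Fabp7 and Tnc at 353 and 311 and at 19.6 and 16.2. Sdc4, a heparan sulphate proteoglycan that astrocytes also make and that is in none of the lists, was at 9.43 (5.20 to 13.7) and 16.6 (9.58 to 23.6) (difference 0.76), with 1.27 at P2 and -0.57 at P10.

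Among microglial genes 12 of 13 past the filter were higher, with a median of 0.23, but under the filter only 5 of 16 were. C1qa, a chain of the first complement component, was at 8.08 (3.85 to 12.3) FPKM in control and 13.5 (7.09 to 19.8) in SMA (difference 0.67, standard error of the log2 ratio 0.52), and the adaptor Tyrobp at 7.46 and 11.0. The chains C1qb and C1qc, which join C1qa in the same molecule, were at 7.92 and 8.08 and at 9.20 and 11.0. The receptor genes Csf1r, Cx3cr1 and P2ry12 gave 0.09, 0.19 and -0.09. Under the filter Trem2 was at 2.27 and 1.56 and Cd68 at 2.03 and 1.59, both lower in SMA. Of 7 interferon and MHC class I genes 5 were higher, near the 75.2% of all genes, with a median of 0.23 (0.11 on fragments). The highest 2, Ifitm1 and Ifi27, reached 5 FPKM in SMA only. Under the filter 16 of 29 were higher. H2-D1, an MHC class I heavy chain, was at 22.1 and 27.4, and its partner B2m at 33.2 and 29.8.

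**Figure D4:**
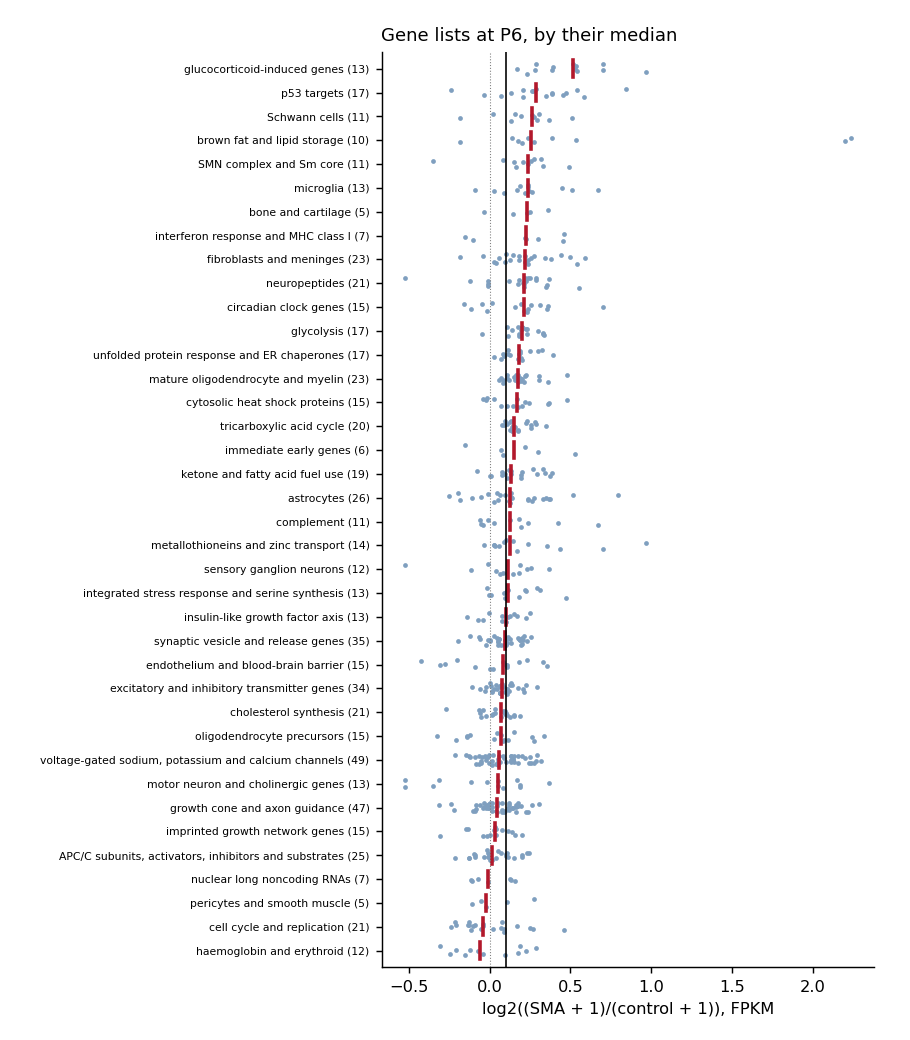
Log2 difference at P6 of every gene (blue points) of the 38 gene lists with at least 5 genes past the filter, sorted by the list's median (red bar), with the number of genes in brackets; the solid line is the median of all genes and the dotted line is 0. Glucocorticoid-induced genes have the highest median and haemoglobin and erythroid genes the lowest.

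Replication-dependent histone genes were the family that lay lowest. These genes supply chromatin proteins during DNA replication, and their RNAs end in a stem-loop without a poly(A) tail, so they are seen in total RNA. A lower value in SMA was found for 42 of 49 members, against 24.8% of all genes, and 44 lay below the median of all genes; under the filter 7 of 11 were lower. The family's median was -0.22 on FPKM and -0.22 on fragments; it was -0.21 at P2 and 0.02 at P10. By class, medians were -0.10 for H1, -0.11 for H2A, -0.25 for H2B, -0.22 for H3 and -0.23 for H4. Hist1h2ba was at 6.84 (1.42 to 12.3) FPKM in control and 2.97 (0.271 to 5.67) in SMA (difference -0.98) and Hist1h2bl at 11.0 (1.92 to 20.05) and 6.03 (0.878 to 11.2) (-0.77), the 2 members past 1.5-fold lower. Few estimated fragments lay behind them, 14.1 in control and 5.95 in SMA for Hist1h2ba and 25.7 and 14.1 for Hist1h2bl. Hist1h2ab gave -0.55, Hist1h2bh -0.52 and the linker histone Hist1h1a -0.46. The highest of the 7 exceptions were Hist1h2bc, at 22.2 and 32.8, Hist1h2ae at 4.02 and 5.98, and the linker histone Hist1h1c at 32.5 and 45.5; Hist1h2bc and Hist1h1c are among those also known to be made outside S phase as polyadenylated RNA. Histone genes of a class have near-identical coding sequences, so how the authors' counting divided fragments among them is uncertain, and none was called.

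Cell cycle genes were also on the low side, with 12 of 21 lower and a median of -0.04, and 21 of 36 lower under the filter. Mki67, a proliferation marker, was at 5.05 and 4.12 FPKM, the nucleotide synthesis genes Tyms and Rrm1 at 8.91 and 7.60 and at 8.06 and 6.79, and the replication clamp Pcna at 22.8 and 20.9. The clamp loader genes Rfc3 and Rfc5 lay on the other side, at 0.46 and 0.25. Genes around the APC/C, the ubiquitin ligase that ends mitosis and also acts in neurons, had 13 of 25 higher and a median of 0.01. Its activator Fzr1 was at 10.3 and 11.98, the subunits Cdc23 and Anapc2 gave 0.24 and -0.21, and the substrate Id2 0.23.

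Fuel and respiration genes had a higher value in SMA in most members, by amounts close to the average gene. Of 20 genes of the tricarboxylic acid cycle 20 were higher, with a median of 0.15 (0.08 on fragments), led by Sucla2 at 38.4 and 49.1 and Dlat at 23.8 and 29.2. Glycolysis had 16 of 17 higher and a median of 0.20: the neuronal glucose carrier Slc2a3 was at 24.3 and 31.0, Aldoc at 172 and 217, and the exception was Pfkp at 94.5 and 91.4. Ketone and fatty acid use had 18 of 19 higher and a median of 0.13. Oxct1, the enzyme with which the suckling brain burns ketones, was at 98.3 and 108, and Pdk4, a fasting-induced kinase under the filter, at 0.8804 and 2.03. In the respiratory chain the medians were 0.16 for complex I, 0.06 for complex IV and 0.15 for ATP synthase, with 15 of 15 higher in the last.

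The SMN complex and Sm core, the machinery of the disease gene, had 10 of 11 members higher, with a median of 0.24 on FPKM and 0.15 on fragments. Snrpd3, Snrpb and Snrpd1, proteins of the Sm ring, were at 7.42 and 10.9, at 23.5 and 29.8 and at 25.4 and 31.9. Snrpe, the most abundant, was at 43.9 and 50.7. Gemin5, the subunit that recognises small nuclear RNAs, was the single member with a lower value, at 5.45 and 4.06, and Gemin2, SMN's direct partner and under the filter, was at 1.44 and 2.44. Of the 6 members under the filter 3 were higher. Splicing regulators lay lower than this: hnRNPs had a median of 0.06 and SR factors of 0.07, with Hnrnpk at 0.32 and Srsf2 at -0.16 at the ends.

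Housekeeping families of protein synthesis and turnover mostly lay a little above the average gene. The CCT chaperonin, which folds actin and tubulin, had 6 of 6 subunits higher and a median of 0.25, with Cct8 at 45.1 and 58.8. Medians were 0.19 for the vacuolar ATPase (17 of 17 higher), 0.18 for the proteasome (30 of 32) and 0.16 for mitochondrial ribosomal proteins (51 of 63). Cytosolic ribosomal proteins were at 0.10 for the large and 0.08 for the small subunit. Rpl22l1, a variant of Rpl22, was the highest of them, at 28.5 and 37.5. Lars2, a mitochondrial leucyl-tRNA synthetase, stood far from the median of 0.18 of the 26 tRNA synthetase genes, at 1691 and 5070.4 FPKM; the standard error of its log2 ratio was 12.01, and its share of fragments moved with the ribosomal loci.

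Other stress pathways were less apart from the average gene than the glucocorticoid and p53 groups. Endoplasmic reticulum chaperones had 17 of 17 higher with a median of 0.18, from Dnajb11 at 0.39 to Atf6 at 0.03; Hspa5, the main one, was at 59.1 and 67.2. Integrated stress response genes had a median of 0.12, with the amino acid synthesis gene Asns at 24.2 and 29.8 and its inducer Atf4 at 27.9 and 32.6. Cytosolic heat shock genes had a median of 0.17, with Dnajb1 at 8.26 and 10.9. Clock genes had a median of 0.21: besides Per1, Nr1d1 was at 5.58 and 7.47, whereas the activators Clock and Arntl were at 18.8 and 18.1 and at 5.51 and 5.44. The hour of dissection is not given in the labels. Fos, an immediate early gene, was at 3.97 and 6.15.

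Transcription factor families lay at or under the average gene, and related families lay on either side of it. Zinc finger genes named Zfp had a median of 0.07 over 130 members and Sox genes -0.03. Chromodomain helicases, which remodel chromatin, had -0.03. Mediator subunits had 0.17 and lysine methyltransferases and demethylases 0.14, but 0.03 and 0.02 on fragments. Among 9 Hox genes, which set position along the cord, Hoxa10 and Hoxd9 lay highest. Hoxa10 was at 8.92 (4.40 to 13.4) FPKM in control and 15.3 (8.19 to 22.5) in SMA (difference 0.72, standard error of the log2 ratio 0.51) and Hoxd9 at 3.59 (1.22 to 5.96) and 6.44 (2.38 to 10.5) (0.70). A locus that joins Hoxd10 and Hoxd11 was at 14.3 and 25.7, a difference of 0.81. Hoxb8, Hoxa7 and Hoxc8, which act farther forward, gave -0.09, -0.11 and -0.24. Hoxa10 gave -0.53 at P2 and 0.41 at P10, so its sign was not the same at each age.

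A few further protein-coding genes were past 1.5-fold on both deposited scales or close to it and belong to no list. Rasgrf1, a Ras activator of neurons and an imprinted gene, was at 29.1 (15.5 to 42.6) FPKM in control and 45.3 (22.9 to 67.6) in SMA (difference 0.62, 0.56 on fragments). Uspl1, a SUMO protease of Cajal bodies, was at 9.25 (0 to 21.1) and 14.6 (0 to 31.2) (0.61), with 0.36 at P2 and 0.47 at P10. Gnl3, which encodes the nucleolar protein nucleostemin, was at 4.05 and 6.67, the mitochondrial enzyme gene Clybl at 4.25 and 7.33, and the uridine kinase gene Uck1 at 9.96 and 15.5. None of these was called.

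The 46 protein-coding genes past 1.5-fold higher at P6 were compared with their values at the other ages. At P2 33 of 46 had a higher value in SMA, where 54.7% of protein-coding genes did, and at P10 15 of 46, where 51.3% did. A higher value at all 3 ages was found for 10 of 46, and 17.3% of protein-coding genes were higher at both other ages; Cdkn1a and Uspl1 were among the 10.

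P6 differences had like medians whichever way a gene goes as the control cord matures. Protein-coding genes were divided into 10 equal parts by their change from P2 to P10 in control cords, and the median P6 difference of the parts ran from 0.09 to 0.13. The part that declines most had a median of 0.09 and the part that increases most 0.12. Exon length went with the difference more: from the fifth of protein-coding genes with the shortest summed exons to that with the longest the medians were 0.13, 0.15, 0.13, 0.10 and 0.06 on FPKM, and they ran from 0.09 to -0.02 on fragments.

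**Figure D5:**
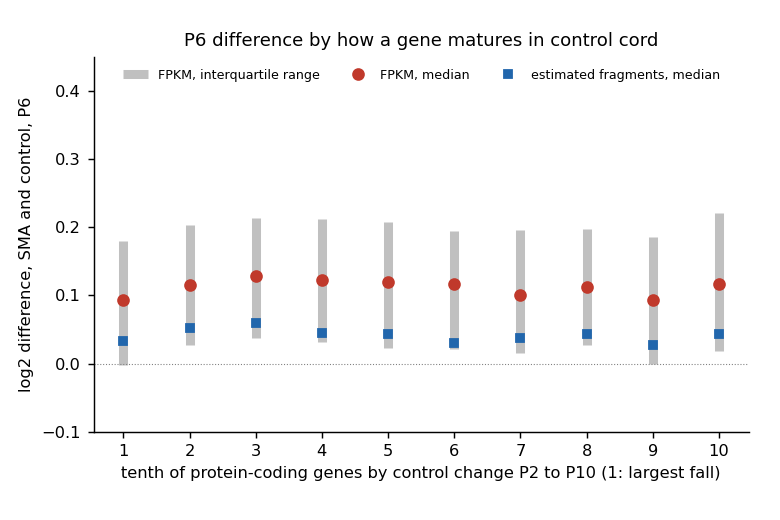
Log2 difference between SMA and control at P6 for 10 equal parts of the protein-coding genes ordered by their change from P2 to P10 in control cord (1: the greatest decline), as the median (red, FPKM; blue, estimated fragments) and the interquartile range on FPKM (grey bar). The red medians lie between 0.09 and 0.13 and the blue ones between 0.03 and 0.06.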

How the data were processed

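Per the labels' protocols, total RNA of whole spinal cords was made into stranded libraries after ribosomal RNA depletion. Per the submitters' processing notes, Bowtie2 2.2.4, TopHat2 2.1.1, Cufflinks 2.2.1, Cuffdiff, Picard and FastQC were used with build GRCm38; their order, settings and annotation release are not given in the sources used here. The authors deposited 1 FPKM per locus and group with a 95% interval, and a companion table of estimated counts (fragments) with a variance, in which the 3 libraries of a group had already been combined. Without values per library, the p-values rest on the authors' model of spread, which may be technical, and the lower bound of an interval is cut at 0 in the deposited table. The z values of the genes of the rule had a robust standard deviation of 0.27, so the model errors were wider than the scatter between genes. For most genes the test was therefore a conservative one. Estimated counts were scaled between groups before deposit and were not rounded or entered in a count model.

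Loci were matched to GENCODE M21 by symbol for gene types and exon lengths. Differences are log2 of (SMA + 1) over (control + 1), which understates the change of low genes. The z test used the log ratio of FPKM with an error from each upper bound (normal quantile 1.96), over loci with 1 FPKM or more in a group, Benjamini-Hochberg adjusted with 0.05 as the threshold; standard errors belong to the log2 ratio without the added 1. A 1.5-fold difference is a description of size and no test. The test was also run on simulated data whose noise was drawn from the deposited interval widths. That run checked the calculation and could not judge the authors' model of spread. The work ran in Python 3.11.15 (scipy 1.17.1, numpy 2.4.6, matplotlib 3.10.9, pandas 2.3.3).

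Genes were named by rule: Smn1, Cdkn1a, Mt1, Mt2, Chat, Chodl, Xist and Ddx3y; the 15 protein-coding genes with the largest and the 15 with the smallest difference; and in each list the member most abundant in control and the 2 farthest in each direction. Any other gene named, predicted genes included, was chosen after its values were seen. The genes, lists and tests were chosen with earlier results of these data known. Alternatives were other pseudocounts, filters, folds, scalings and the companion table; one, fragments scaled without ribosomal loci, was chosen after seeing the data. Some genes that the rule names are not reported here.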

Additional observations from a re-analysis of the deposited data

Results flagged for a closer look

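The SMA to control ratio itself differed between ages at a few loci, by the z test of the difference of log2 ratios with Benjamini-Hochberg adjustment. Between P6 and P2 it differed at 7 of 19578 loci, 1 higher and 6 lower at P6. The protein-coding ones were the oligodendrocyte genes Ermn, with a log2 ratio of 0.10 at P6 and 4.21 at P2 (difference -4.11, standard error 0.94, adjusted p 0.0355), and Mal (difference -3.49). Between P6 and P10 it differed at 4 of 19577 loci, of which 0 were protein-coding; Dancr, with a difference of 0.86, was one of them.

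Loci outside the rule also held differences. Of 998 loci that join several gene symbols and reach 5 FPKM, 12 were at least 1.5-fold higher in SMA, 1 of them also on estimated fragments, and 11 were lower. Of 171 loci without a symbol, 17 were higher, 16 of them also on fragments, and 22 were lower, with a median difference of -0.12; 3 of these loci were called by the z test.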

How the results depend on the processing

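No paired analysis was possible because no values per library were analysed, only 1 per group; for the same reason no replicate was left out in turn and no sample could be looked at as an outlier. The z test called 9 loci, 0 from estimated fragments, 23 by intervals that do not overlap and 1 among protein-coding and long noncoding genes alone. The 107 genes 1.5-fold higher and the 112 lower became 63 and 74 with a pseudocount of 5, 309 and 329 with a filter of 1 FPKM, 31 and 41 with 20 FPKM, 397 and 418 with no filter, 396 and 188 at 1.3-fold, and 50 and 67 at 2-fold. With estimated fragments they were 77 and 91, without the ribosomal loci 78 and 90, and with the upper quartile 83 and 137. The share of genes higher in SMA, 75.2%, was 50% by construction when centred on the median, 48.1% with the upper quartile, 60.7% on fragments, 63.3% on fragments without the ribosomal loci and 82.5% at 20 FPKM or more. Dancr reversed on fragments, to 0.32, and to 0.33 without the ribosomal loci; the cause was not tested. Over 6 alternatives per gene, 1982 of 2142 values of 357 named genes kept their sign. Against the gene's own standard error, which is wide, 2136 of the 2142 moved by less than it and 4 by more, so this says little of their size: Sp1, Panx1, B4galt3 and Cryab lose most of their difference on fragments. Of the list medians 568 moved by less than the spread of all genes and 2 by more. Of 53 lists under 0.1 from the median of all genes, 32 kept their side of it. At a median standard error of 0.588 for the log2 ratio, the depth and the authors' model limit what single genes can show.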

Other observations

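Sex-linked RNA did not differ between the groups in the same direction at each age. The 4 Y-linked genes had a median difference of 1.11 at P6, -1.36 at P2 and -0.75 at P10. The joined locus with Xist was at 0.064 (control) and 67.3 FPKM (SMA) at P2 and at 29.1 and 69.0 FPKM at P10.

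Further groups at P6 had no member past 1.5-fold. The imprinted growth genes had a median of 0.03 over 15 members, with Mest, a hydrolase of growing tissue, at 77.3 and 62.4 FPKM. The insulin-like growth factor axis had a median of 0.10 over 13. Nuclear long noncoding RNAs had a median of -0.01 over 7, with Malat1, of nuclear speckles, at 1600.0 and 1520.3. Genes whose names begin with S100, most of which encode calcium-binding proteins, were higher in 8 of 8 with a median of 0.22. S100pbp, counted among them by its name, does not itself encode an S100 protein.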
